A study of Mus musculus with 2 samples.

Results

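Epithelial cells are held together by several kinds of contact, and the genes that build or dissolve those contacts were read here in posterior tissue of mouse embryos that lack Cdx4 and 1 copy of Cdx2. The set holds 39 genes, chosen by name: 19 of tight junctions, 10 cadherins and catenins, 5 of desmosomes and 5 transcription factors of the transition from epithelium to mesenchyme. A member was matched by the gene name in the array files or by its current symbol through the listed accessions. Of the 39 genes, 38 had a matching probe (Cdh2, N-cadherin, was not analysed here). Of these, 35 were detected, which means that on each of both arrays the scanner software placed the probe well above background for the same genotype, or for both genotypes. They stand among 25996 genes detected of 32736 genes named on the array.

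The study asked which genes go up or down when Cdx dose is reduced in the growing trunk. Mutants were Cdx2+/-Cdx4-/-, heterozygous for a Cdx2 mutation and without functional Cdx4, and the controls were wildtype. Embryos had 13 somites, and everything behind a fixed level set by the youngest somite border was taken. Tissue from 7 embryos was pooled per genotype. This was taken here as 1 pool of each, compared on 2 dual-colour arrays with the dyes exchanged. Whether both arrays carried the same extracts is not stated. The mutant pool carried Cy5 on replicate 1 and Cy3 on replicate 2. No strain, sex or Cdx2 and Cdx4 allele name is given in the sources used here. A value is a mean over every tissue in the piece.

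All values below are log2 ratios of mutant over wildtype signal on 1 array, unless a level is named. A level is the log2 normalised signal of 1 pool on 1 array and was compared only within a probe. The ± values are SDs of the 2 arrays and measure the spread of repeat hybridisations of the 2 pools, not of embryos, so no test between genotypes was made. A gene was counted when its ratio passed 1.5-fold (0.585 on the log2 scale) in the same direction on each array. The targeted genes were read first: Cdx4 stood at -2.61 and -2.44, and Cdx2, with 1 intact copy in the mutant, at 0.01 and -0.12. Median spot signal was 146 to 159 in the 4 channels, against medians of 91.3 to 113 at negative control spots. Markers of surface ectoderm, gut, neural tube, paraxial and lateral mesoderm, endothelium, blood and notochord were all detected in part, as in a mixed posterior piece. A lower signal in such a piece can come from fewer cells of a type or from less RNA per cell, which cannot be told apart. The pools also differed in sex genes. Xist gave -2.29 and -2.04, a fold of 4.49 lower, and was well above background in the wildtype pool only. Ddx3y, Eif2s3y and Uty, from the Y chromosome, had mean ratios of 0.58, 0.39 and 0.50, each positive on replicate 1 and replicate 2. With median centring none of these 3 stayed positive when the dyes were exchanged, while 1 of the 4 sex genes stayed negative. The part of sex in the ratios below was not tested.

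Tight junctions seal the space between epithelial cells: claudins and occludin cross the membrane, and scaffolds of the ZO family tie them to actin. Below them, adherens junctions join cells through cadherins, which bind like cadherins on the next cell and hold catenins inside. Desmosomes link desmosomal cadherins through plakoglobin, plakophilins and desmoplakin to keratin filaments. Snail, Twist and Zeb factors repress E-cadherin and other junction genes when cells leave an epithelium, as they do at gastrulation and when neural crest departs. In the posterior embryo such departure feeds new mesoderm while surface ectoderm, gut and neural tube stay epithelial.

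None of the 35 detected junction members passed 1.5-fold on both arrays, in either direction. Across all detected genes, 55 passed as higher (0.212%) and 60 as lower (0.231%), a split that was 27 and 16 with median centring in place of loess. The median ratio of the members was 0.01, beside 0.00 over all detected genes. Their median size without sign was 0.0696, beside 0.0645 over all genes. In 34 of 35 members (97.1%) the mean ratio lay within 0.3 of 0, as it did for 96.2% of all detected genes, and the exception was Snai1. A looser limit of 1.3-fold on each array also took in 0 members, while 0.539% of all detected genes passed it as higher and 0.75% as lower. At 2-fold the shares of all genes were 0.0769% and 0.0269%, again with 0 members. By the mean of both arrays 0.3% and 0.365% of all genes passed 1.5-fold, and 0 members. On replicate 1 alone 2 members, Snai1 and Cldn15, passed 1.5-fold as lower and 0 as higher, where 1.45% and 0.358% of all genes did. On replicate 2 alone 0 members passed, where 0.989% of all genes passed as higher and 0.481% as lower.

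**Figure D1:**
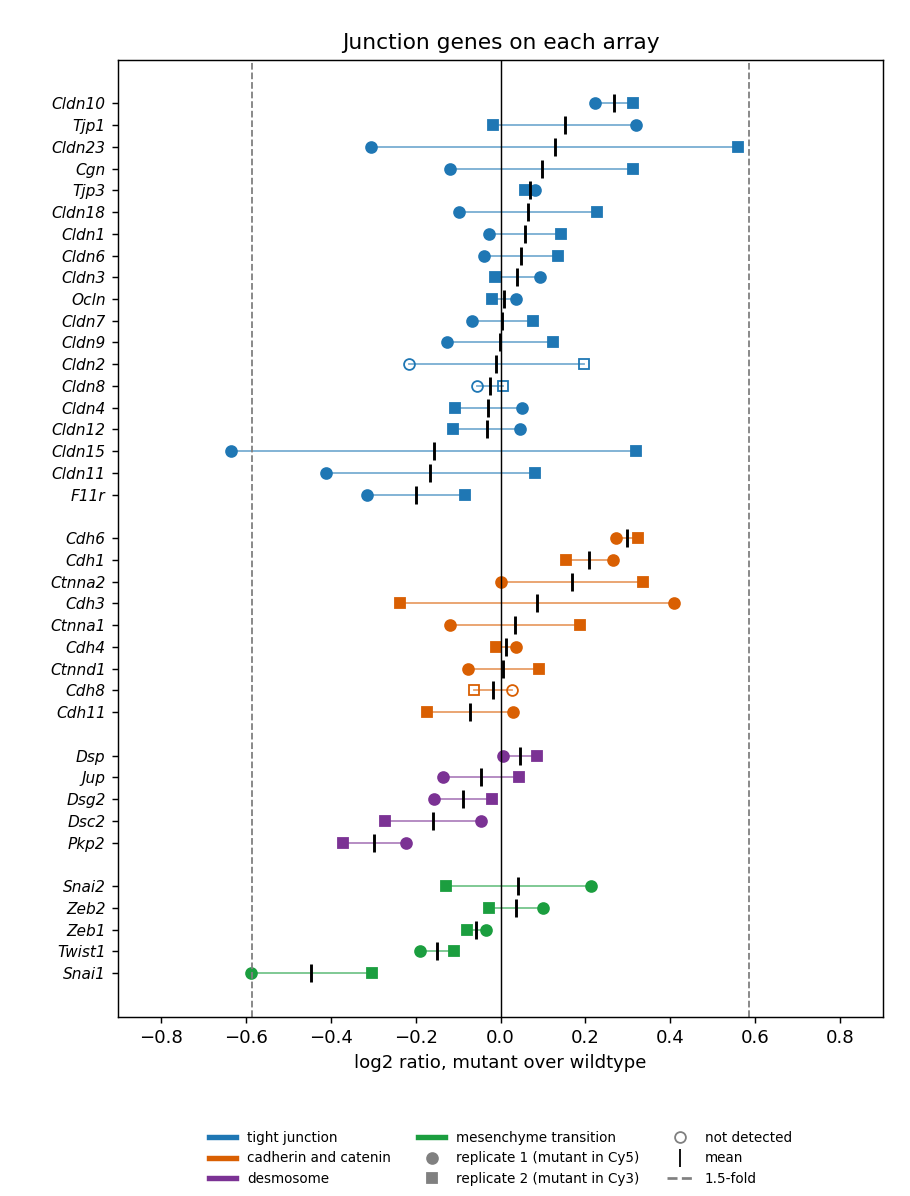
Log2 ratio of mutant over wildtype (x axis) for each measured junction gene (rows, by group) on replicate 1 (circles) and replicate 2 (squares), open where not detected, with a black tick at the mean and dashed lines at the 1.5-fold limits of 0.585. No gene lies past the limit on both arrays, and Snai1 and Cldn15 pass it on replicate 1 alone.

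The 4 groups sat close to 0. The median ratio was 0.04 over 17 tight junction members, 0.06 over 8 cadherins and catenins, -0.09 over 5 desmosome members and -0.06 over 5 transition factors. Most members did not keep 1 direction when the dyes were exchanged: 13 of 35 (37.1%) had the same sign on both arrays, against 47.7% of all detected genes. Of those 13, 6 were above 0 and 7 below. With median centring, which leaves in a dye difference that varies with brightness, 3 of the 35 were above 0 on both arrays and 2 below. Of the 13, Snai1 and Cldn10 kept 1 sign on both arrays under all 8 alternatives that use both arrays. Scaling between arrays, the detection filters and the probe median could not move these genes, so only the remaining alternatives could have changed their sign. Each of the other 11 lost its common sign under at least 1 of the 8, mostly median centring. Thus "on both arrays" below refers to loess values unless another is named. The share was 3 of 17 among tight junction members, 3 of 8 among cadherins and catenins, 4 of 5 in the desmosome group and 3 of 5 among transition factors.

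Among the 22 members with opposite signs, 12 (34.3% of 35) had the higher normalised signal in Cy3 on both arrays and 10 (28.6%) in Cy5. These sides follow the sign of the loess ratio, not raw spot brightness. Over all detected genes the shares were 21.6% and 30.4%. The part of the dyes in single ratios was not tested. The spread between arrays was wider at dim probes. The 9 members with a mean log2 signal below 7 had spot brightness of 106 to 187 and a pooled SD between arrays of 0.35, and 8 of them changed sign. The 26 brighter members had a pooled SD of 0.16, and 14 of them changed sign. Over all detected genes the same split differed less. Below 7 their pooled SD was 0.21, and 6531 of 11054 changed sign. At or above 7 it was 0.17, and 7059 of 14942 did.

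**Figure D2:**
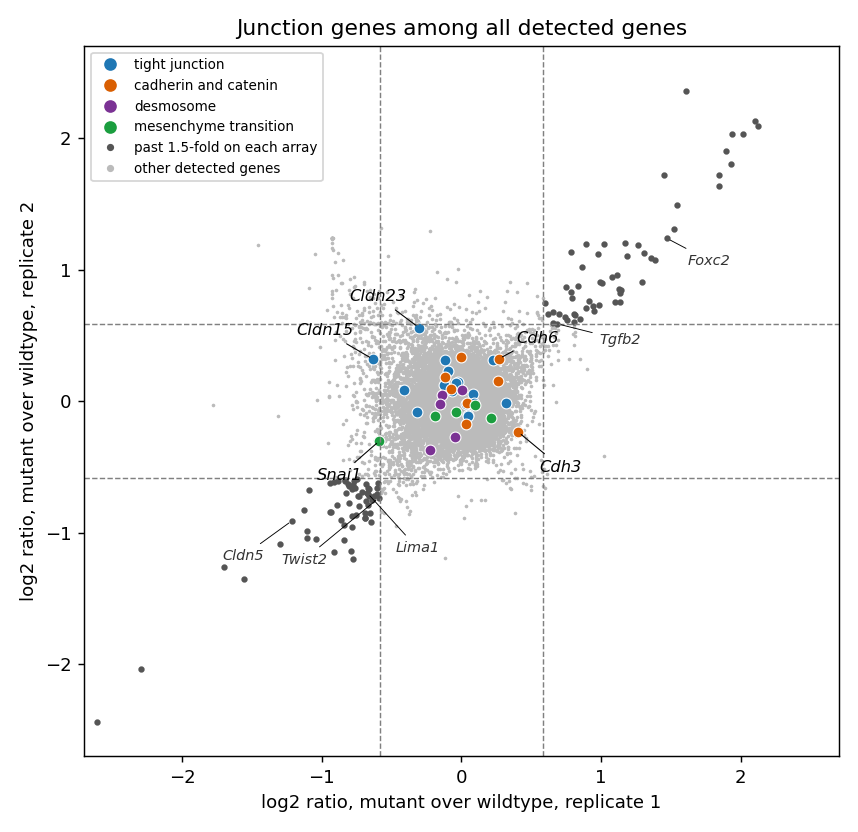
Log2 ratio of mutant over wildtype on replicate 1 (x axis) against replicate 2 (y axis) for the detected genes (light grey, or dark grey where past 1.5-fold on each array) and the 35 detected junction members (coloured by group). The members lie around the origin, with Snai1 farthest along the side where both arrays read lower, at -0.59 and -0.30.

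Tight junction genes come first. Claudins with broad expression in early epithelia, Cldn3, Cldn4, Cldn6 and Cldn7, stayed near equal signal. Cldn6, a claudin of early embryonic epithelia, had levels of 6.89 in wildtype and 6.85 in mutant on replicate 1, and 7.17 and 7.31 on replicate 2. Its ratios were -0.04 and 0.14 (mean 0.05 ± 0.12), so the pools overlapped across arrays. Its probe maps to chr17:22276662-22276721 in the coordinates of the array files, which name no genome build. Cldn3 gave 0.09 and -0.01, Cldn4 0.05 and -0.11, and Cldn7 -0.07 and 0.08. None of these 4 claudins kept its sign on these probes, while a second detected probe for Cldn7 gave -0.29 and -0.06.

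On the probes used, a further 4 claudins also changed sign between arrays. Cldn9, next to Cldn6 on chromosome 17 in the array files, gave -0.13 and 0.12, and Cldn12 gave 0.05 and -0.11. Cldn1, a barrier claudin of skin, gave -0.03 and 0.14. Cldn18, a claudin of stomach and lung, gave -0.10 and 0.23. A second detected probe for Cldn12 gave 0.02 and 0.09, so its sign depends on the probe.

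Cldn10, a claudin that forms paracellular ion channels, was the claudin that read above 0 on both arrays. It was singled out after its values were seen. Wildtype and mutant levels on replicate 1 were 6.67 and 6.89, and replicate 2 gave 6.82 and 7.13. The ratios of 0.22 and 0.31 had a mean of 0.27 ± 0.06, a fold of 1.20. The probe is dim, with brightness of 140 to 171, and the mutant level on replicate 1 was close to the wildtype level on replicate 2.

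The widest disagreement between arrays was also in claudins. Cldn15, an ion channel claudin of intestine, gave -0.63 and 0.32 (mean -0.16 ± 0.67), and Cldn23 gave -0.30 and 0.56 (mean 0.13 ± 0.61). Both probes are below a log2 signal of 7. Cldn11, a claudin of myelin and testis, gave -0.41 and 0.08. These 3 claudins have no direction here, and they too were singled out for their values. Cldn2 and Cldn8 were not well above background in either genotype on both arrays, with ratios of -0.21 and 0.20, and -0.06 and 0.01.

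Of the membrane and scaffold partners of claudins, 5 were read. Tjp1, which encodes the scaffold ZO-1, gave 0.32 and -0.02. Replicate 1 gave levels of 11.91 in wildtype and 12.23 in mutant, and replicate 2 gave 12.25 and 12.23. Among these normalised levels the wildtype value on replicate 1 stood apart. Raw spot brightness paired by dye instead, at 3015 and 3264 in Cy3 and at 6593 and 6821 in Cy5. A brighter raw Cy5 signal on both arrays was not particular to Tjp1, as F11r and Twist1 also had it. Tjp3, encoding ZO-3, stood at 0.08 and 0.06 (mean 0.07 ± 0.02), above 0 on both arrays but at a small size. F11r, encoding the adhesion molecule JAM-A, read below 0 on both, at -0.31 and -0.08 (mean -0.20 ± 0.16), but at 0.17 and -0.73 with median centring. Ocln, encoding occludin, gave 0.04 and -0.02, and the cytoplasmic linker gene Cgn gave -0.12 and 0.31. Tjp3, F11r and Cldn10 were the tight junction members that kept a sign.

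**Figure D3:**
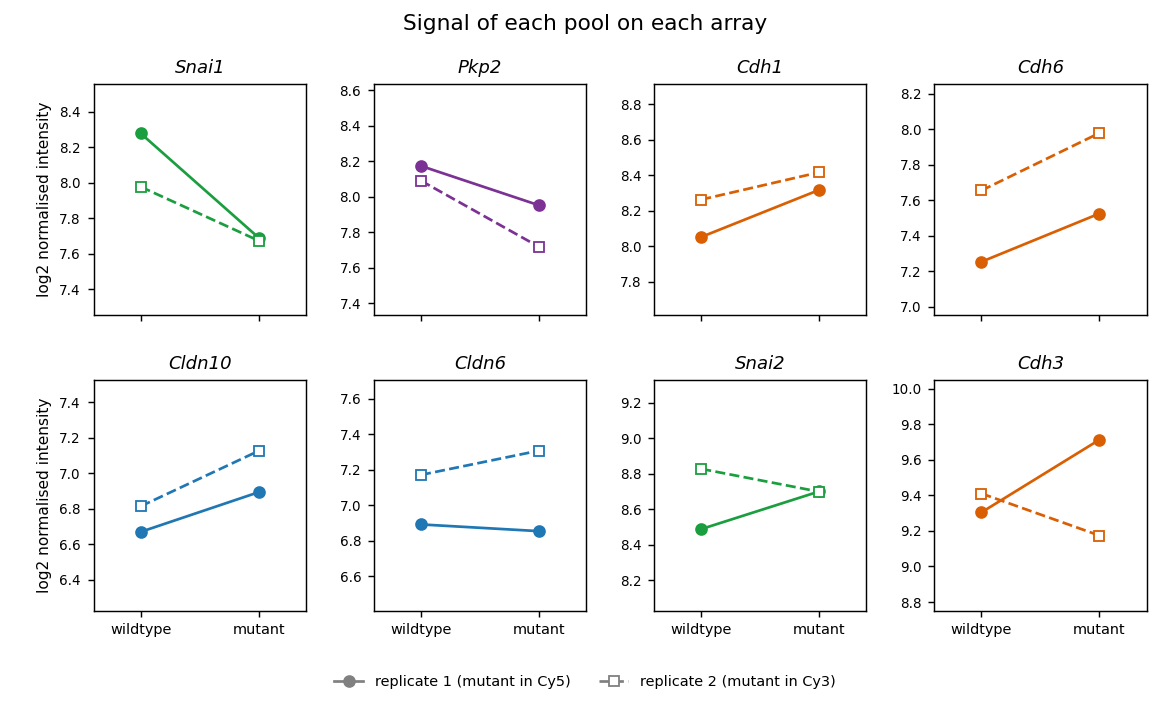
Log2 normalised signal (y axis) of the wildtype and mutant pools on replicate 1 and replicate 2, joined by a line per array, for chosen junction genes, each panel with its own range of the same width. Snai1 is lower in the mutant pool on both lines and Cdh6 higher on both (not so with median centring), while Snai2 and Cldn6 turn with the array.

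E-cadherin, the main cadherin of epithelia and a target of Snail and Zeb repression, read slightly above 0. Cdh1 had wildtype and mutant levels of 8.05 and 8.32 on replicate 1, and 8.26 and 8.42 on replicate 2. The ratios were 0.27 and 0.15 (mean 0.21 ± 0.08), a fold of 1.16. The mutant level was the higher on each array, but the wildtype level on replicate 2 was within 0.1 of the mutant level on replicate 1. With median centring the ratios were 0.60 and -0.31, so the sign then turned with the dyes. Its probe maps to chr8:105977626-105977685 in the files' coordinates.

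Cdh6, a type II cadherin of kidney, neural and neural crest cells, had the largest mean ratio among the cadherins, although Cdh3 read higher on replicate 1. It was singled out after its values were seen. Replicate 1 gave levels of 7.25 in wildtype and 7.53 in mutant, and replicate 2 gave 7.66 and 7.98, so the arrays differed from each other by more than the pools did. The ratios of 0.27 and 0.32 gave a mean of 0.30 ± 0.04, a fold of 1.23. A second probe for Cdh6 gave 0.33 and 0.23, but its brightness of 99.9 to 130 is near the negative controls. It counted as detected through the mutant pool alone, where it reads higher, so it is no independent support. With median centring the probe used gave 0.47 and -0.04. In the ranking of mean ratios, 98.5% of detected genes were below it.

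Cdh3, encoding P-cadherin of surface epithelia, gave 0.41 and -0.24 (mean 0.09 ± 0.46) and has no direction here. Cdh4, encoding retinal cadherin, gave 0.04 and -0.01 near background, and Cdh11, a cadherin of mesenchyme, gave 0.03 and -0.17. Cdh8 was not well above background in either genotype on either array, at 0.03 and -0.06. The sign of Cdh3, Cdh4 and Cdh11 on these probes depended on the array. A second detected probe for Cdh4 gave -0.26 and -0.03, both below 0.

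Catenins hold cadherins to actin and keep them at the membrane. Ctnna1, the widely expressed alpha-catenin, gave -0.12 and 0.19. Ctnna2, the neural alpha-catenin, gave 0.00 and 0.34 (mean 0.17 ± 0.24). Ctnnd1, encoding p120 catenin, gave -0.08 and 0.09, and a second detected probe gave 0.03 and 0.01. On the probe used for each of these 3 catenins, the gap between arrays was larger than the mean ratio.

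Desmosome genes had the lowest group median on the mean of both arrays, but on replicate 2 alone their median of -0.02 lay above the -0.11 of the transition factors. Pkp2 had the lowest ratio among the 5 on each array. Pkp2, encoding plakophilin 2 of simple epithelia and heart, had wildtype and mutant levels of 8.17 and 7.95 on replicate 1, and 8.09 and 7.72 on replicate 2. The ratios were -0.22 and -0.37 (mean -0.30 ± 0.11), a fold of 1.23 lower. Both mutant levels were below both wildtype levels, though median centring gave ratios of 0.10 and -0.75. It too was singled out after its values were seen, and 2.47% of detected genes had a lower mean ratio.

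The desmosomal cadherins leaned the same way at a smaller size. Dsc2, encoding desmocollin 2, gave -0.05 and -0.27, and Dsg2, encoding desmoglein 2, gave -0.16 and -0.02. Jup, encoding plakoglobin, which sits in both adherens junctions and desmosomes, gave -0.14 and 0.04. Dsp, encoding the keratin anchor desmoplakin, gave 0.01 and 0.09. A brighter probe that the files name 5730453H04Rik, an older name of Dsp, was not taken for it by the matching rule and gave -0.09 and -0.16. The sign for Dsp therefore depends on which probe is read.

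By the mean of both arrays, the transition factor Snai1 had the lowest ratio among all 35 members, while Cldn15 was lower on replicate 1 and Pkp2 on replicate 2. Snai1, the founding repressor of E-cadherin in mesoderm formation, had wildtype and mutant levels of 8.28 and 7.69 on replicate 1, and 7.98 and 7.67 on replicate 2. Both mutant levels were below both wildtype levels. The ratios were -0.59 and -0.30 (mean -0.45 ± 0.20), a fold of 1.36 lower. Replicate 1 alone passed 1.5-fold. In all, 0.85% of detected genes had a lower mean ratio. Its probe maps to chr2:167605680-167605739 in the files' coordinates.

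Snai2, the related repressor of neural crest and mesoderm, did not follow. Replicate 1 gave levels of 8.49 in wildtype and 8.70 in mutant, and replicate 2 gave 8.83 and 8.70, with ratios of 0.21 and -0.13 (mean 0.04 ± 0.24). Its probe maps to chr16:14425220-14425279. Twist1, a basic helix-loop-helix factor of mesenchyme, read below 0 on both arrays, at -0.19 and -0.11 (mean -0.15 ± 0.06), but at 0.30 and -0.76 with median centring. Zeb1 gave -0.04 and -0.08 (mean -0.06 ± 0.03), but 0.38 and -0.53 with median centring. A second detected probe for Zeb1 gave 0.01 and -0.04. Zeb2, a factor of neural crest and mesoderm, gave 0.10 and -0.03. Snai1 read lower and, on loess values, E-cadherin higher on both arrays, a pairing of 2 genes picked out after the values were seen, and whether they are linked was not tested.

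Snail and Zeb factors bind the E-box letters CACCTG, so the bases before the start sites were searched for them, on both strands. The windows hold the 250 bases upstream of a start in RefSeq's GRCm38.p6 table, which lists 25 members in 36 windows. Cdh1 is among the members without a window there, so the bases upstream of E-cadherin were not searched. The E-box stood in 9 of 36 windows (25.0%), belonging to Cldn4, Cldn6, Cldn7, Ctnna2, F11r, Ocln, Snai1 and Tjp3, and in 17.2% of 32851 windows of all genes. The letters TTTATG, the core of Cdx binding sites, stood in 3 of 36 (8.3%), belonging to Cldn2, Ctnnd1 and Jup, and in 10.8% of all windows. A match describes the letters and is no binding site. Shown are the window of Snai1, the member with the lowest mean ratio, and that of Cldn4, a claudin near equal signal, with the E-box in capitals.
Snai1: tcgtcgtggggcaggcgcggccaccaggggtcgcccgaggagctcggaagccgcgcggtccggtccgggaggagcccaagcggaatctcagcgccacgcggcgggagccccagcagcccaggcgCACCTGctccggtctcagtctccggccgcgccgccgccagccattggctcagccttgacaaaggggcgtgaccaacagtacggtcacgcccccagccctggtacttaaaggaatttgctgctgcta
Cldn4: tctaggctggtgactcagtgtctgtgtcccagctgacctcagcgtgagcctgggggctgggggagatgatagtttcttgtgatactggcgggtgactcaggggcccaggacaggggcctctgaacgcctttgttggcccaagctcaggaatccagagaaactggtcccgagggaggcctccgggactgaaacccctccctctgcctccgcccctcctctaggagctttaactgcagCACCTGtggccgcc
The Snai1 window is chr2:167537945-167538194 on the plus strand, and its E-box begins 126 bases before the start. The Cldn4 window is chr5:134946935-134947184 on the minus strand, and its E-box begins 14 bases before the start. Both genes hold the same letters upstream, and any part of these letters in the ratios was not tested.

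Other genes of the same junctions were counted from lists of each junction's known parts, chosen with earlier results of these data known. Over all detected genes, 0.212% passed 1.5-fold as higher and 0.231% as lower. Of 24 detected other tight junction genes, 0 passed as higher and 1 as lower, Cldn5, the claudin of endothelium. Cldn5 had wildtype and mutant levels of 10.04 and 8.82 on replicate 1, and 9.93 and 9.02 on replicate 2, with a mean ratio of -1.06 ± 0.21, a fold of 2.09 lower. It is no member, and the members' claudins stayed within 0.3 on the mean. All 14 detected endothelial markers, Cldn5 among them, read below 0 on each array (10 of 14 with median centring). Their median ratio was -0.44, while the endothelial junction genes Cdh5 and Esam stood at -0.12 and -0.29 on the mean. The part of endothelial cell number in this was not tested.

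Of 23 detected other adherens junction genes, 0 passed as higher and 1 as lower, Lima1, an actin-binding partner of alpha-catenin. Lima1 gave -0.67 and -0.70 (mean -0.69 ± 0.02), a fold of 1.61 lower, and a second probe gave a mean of -0.56. The list median was 0.06. Of 5 detected other desmosome genes, 0 passed, and the largest mean ratios over both arrays were 0.16 for Pkp1 and 0.16 for Ppl.

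Among these other lists, regulators of the epithelial or mesenchymal state held most of the counted genes, which may reflect how the lists were chosen. Of 19 detected, 2 passed as higher and 1 as lower, beside 0.212% and 0.231% of all detected genes. Foxc2, a factor of paraxial mesoderm and mesenchyme, gave 1.47 and 1.24, a fold of 2.56 higher. Tgfb2, a secreted ligand that can drive the transition, gave 0.69 and 0.59, a fold of 1.56 higher. Twist2 gave -0.59 and -0.74 (mean -0.66 ± 0.10), a fold of 1.58 lower, next to -0.15 for its relative Twist1. The mesenchymal filament gene Vim gave -0.52 and -0.50, short of the limit, but 0.06 and -1.31 with median centring. Without background subtraction and with median centring in place of loess, Tgfb2 and Twist2 were no longer past the limit, and with median centring Lima1 was not either. Of 10 detected paraxial mesoderm markers, a list that holds Foxc2, 5 were past the limit as higher, at mean ratios of 1.18 to 2.12. The rest lay between -0.12 (Msgn1) and 0.13 (Tbx18). The list median of 0.66 falls in the gap between these 2 sets, and with no detection filter it was 0.13 over 12. The part of paraxial mesoderm in the ratio of Foxc2 was not tested.

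**Figure D4:**
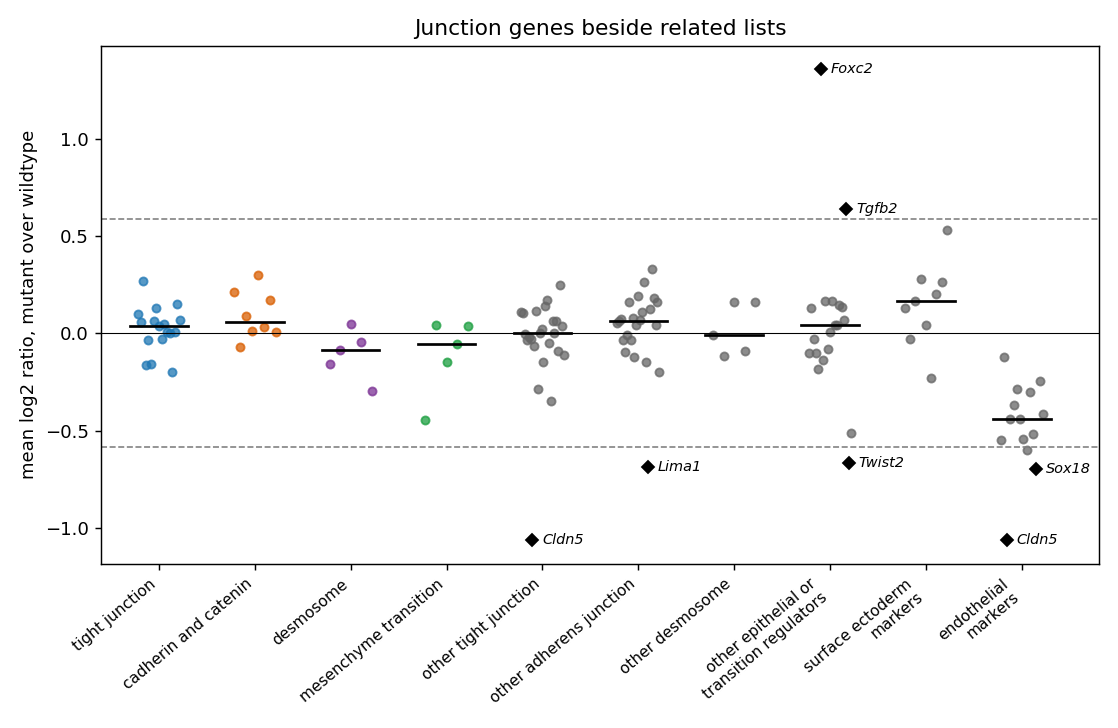
Mean log2 ratio of mutant over wildtype over both arrays (y axis) for the detected genes (points, diamonds where past 1.5-fold on each array) of the 4 junction groups, the related lists and the surface ectoderm and endothelial markers (x axis), with the median of each as a bar. The junction groups cluster near 0, while single genes of related lists, Cldn5, Lima1, Twist2, Tgfb2 and Foxc2, lie past 1.5-fold.

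Surface ectoderm, a main epithelium of the tail end, was read beside the junction genes. Of its 9 detected markers 0 passed, 7 were above 0 and 1 below on both arrays, and the median was 0.16. With median centring 1 was above 0 on both arrays, at a median of 0.13. The mean log2 level of these markers on replicate 1 was 9.87 in wildtype and 10.01 in mutant, and replicate 2 gave 9.88 and 10.04. The small positive ratio of Cdh1 stood beside positive ratios of most of these markers, such as 0.13 for Epcam on the mean. Krt8 stood at -0.23 in the same list. Cdh1 is 1 member, and the group medians were 0.04 for tight junction, 0.06 for cadherin and catenin and -0.09 for desmosome members. The part of the share of ectoderm in the ratio of Cdh1 was not tested.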

How the data were processed

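Total RNA from posterior tissue of 1 wildtype pool and 1 mutant pool was hybridised to both arrays. The deposited intensity values are mean spot brightness in Cy3 and Cy5 and the median local background, uncorrected and not normalized, per the file headers. Per the file headers, the software also gives Cy5 relative to Cy3 as a log10 value, corrected for background and dye. Its p-value, as deposited, covers technical error of single spots. Agilent Feature Extraction is listed as 9.5.3 in the submitters' processing notes and as 7.5.1 in the headers. No genome build is named for the deposited coordinates.

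Signals were background-corrected (normexp, offset 50) and loess-normalized within each array, with control spots at weight 0, in limma 3.58.1 and R 4.3.3. This offset shrinks the ratios of dim genes. Spots flagged as non-uniform were left out (205 on replicate 1, 90 on replicate 2), saturated spots were kept, and spots of a probe were averaged. Each array holds 41174 gene spots, of which 77.4% to 82.5% were well above background per channel. Where a gene had several detected probes, the one brightest on average in log2 signal was used. Ctnna1, Ctnna2, Ctnnd1, Zeb1 and Zeb2 were named through accessions. The number of arrays, which may carry the same extracts, limits the precision. The procedure was tested on simulated data with changes placed only in brighter probes, so recovery of changes at dim probes was not covered.

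Members and lists were chosen with earlier results of these data known. Every member was to be given, in full those past 1.5-fold or else beyond 0.3 in the same direction on each array, and always Cdh1, Cdh2, Snai1, Snai2 and Cldn6. Other lists were given by counts, with genes past 1.5-fold or else the 2 largest ratios. Alternatives covered background, normalization, probe rule, detection, size limit and single arrays. A protein table was not used here.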

Additional observations from a re-analysis of the deposited data

How the results depend on the processing

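No junction member passed 1.5-fold on both arrays under any of the other background corrections, normalizations, probe rules or detection filters tried, nor with limits of 1.3-fold or 2-fold, the mean of both arrays or the software's error model. Leaving out 1 array at a time gave 0 to 2 members past 1.5-fold as lower and 0 as higher. The 2 were Cldn15 and Snai1, both without replicate 2. With the software's own ratio, the median of cadherins and catenins was 0.17 and that of desmosome genes -0.18, and the cause was not tested. Leaving out 1 array gave medians of -0.03 to 0.04 for all members, -0.04 to 0.08 for tight junction, 0.03 to 0.12 for cadherin and catenin, -0.14 to -0.02 for desmosome and -0.11 to -0.04 for transition genes. Over 8 settings that keep both arrays, the mean ratio ran from -0.56 to -0.37 for Snai1, 0.21 to 0.44 for Cdh6, -0.45 to -0.25 for Pkp2, 0.20 to 0.54 for Cldn10 and 0.15 to 0.24 for Cdh1. Scaling between arrays and the detection filters left all these means unchanged, and the probe median moved only that of Cdh6. Over all detected genes, 55 passed 1.5-fold as higher and 60 as lower. Leaving the background in gave 43 and 38, an offset of 16 gave 80 and 91, centring on the median gave 27 and 16, the software's ratio gave 167 and 189, and its error model gave 84 and 107. Median centring changed the sign of 9 of 35 members. No paired analysis was possible because the arrays were taken as repeats of 1 pool per genotype and the ratio is already taken within each array. Signals close to the negative controls limit the dim probes.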
